A study of Mus musculus with 4 samples.

Results

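The E2F transcription factors and the retinoblastoma (RB) pocket proteins were examined in erythroblasts, the nucleated precursors of red cells, of Parp2 knockout and wild type mice. The set holds 10 genes chosen by name, namely E2f1, E2f2, E2f3, E2f4, E2f7, E2f8, Tfdp2, Rb1, Rbl1 and Rbl2, out of 19938 genes with a probe set that names them alone. Each gene is represented by the probe set of highest mean over the 4 arrays, and all 10 had such a probe set. The wild type group and the knockout group (genotype Parp-2-/-, which lacks the DNA-damage-dependent poly(ADP-ribose) polymerase PARP2) each had 2 arrays, both on the C57BL/6 strain background. The cells were bone marrow cells sorted for the erythroid antigen Ter119 and for CD71, the transferrin receptor. The sources used here give no age, treatment or pooling of animals, and do not say whether the arrays came from separate animals. P-values and standard errors here thus speak only to how far these 4 samples scatter, and that scatter may be technical. Both are moderated, since limma draws the variance of each probe set towards that of all probe sets.

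E2F factors bind DNA as dimers with a DP partner and set the expression of genes for S phase entry. In G1 the pocket proteins RB, p107 and p130 hold them in check, and cyclin-dependent kinases lift that block by phosphorylating the pocket proteins. Red cell precursors run through rapid divisions and then leave the cell cycle as they condense and expel the nucleus, and mice that lack Rb1, E2f4 or E2f2 are known for defects of red cell formation.

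The promoters were examined first, because E2F factors are known to regulate genes of their own family. RefSeq promoter windows of build GRCm38.p6 (250 bases before to 50 bases after an annotated start) were at hand for 8 of the 10 members, all but E2f4 and Rb1. The only window of E2f1 reads as coding sequence of that gene from its first bases, so the E2f1 promoter upstream of it was not searched. The E2F recognition letters searched were TTTCCCGC, TTTCGCGC, TTTGCCGC and TTTGGCGC, on both strands. These letters can overlap one another and a longer GC-rich stretch. They stood in a window of 4 of the 8 members, E2f2, E2f3, E2f7 and Rbl1, and in a window of 2.6% of the 27025 genes in the table. The sequences below show where they lie, with the match in capitals, read 5′ to 3′ on the strand of the gene. GCGGGAAA is the first of the letters read on the opposite strand. For E2f3, E2f7 and Rbl1 the 250 bases before the start are given, and for E2f2, whose match lies behind the start, the 30 bases around it.
E2f2 (chr4:136172294-136172323, + strand, match beginning 39 bases after the start): cgaatttggcggcatatagTTTGGCGCtaa
E2f3 (chr13:29986064-29986313, - strand, match beginning 11 bases before the start): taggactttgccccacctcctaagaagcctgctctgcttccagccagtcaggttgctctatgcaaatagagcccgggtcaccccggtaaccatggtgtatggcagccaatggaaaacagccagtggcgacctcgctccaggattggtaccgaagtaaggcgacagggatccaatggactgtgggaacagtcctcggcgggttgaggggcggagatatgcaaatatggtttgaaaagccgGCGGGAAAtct
E2f7 (chr10:110745189-110745438, + strand, match beginning 198 bases before the start): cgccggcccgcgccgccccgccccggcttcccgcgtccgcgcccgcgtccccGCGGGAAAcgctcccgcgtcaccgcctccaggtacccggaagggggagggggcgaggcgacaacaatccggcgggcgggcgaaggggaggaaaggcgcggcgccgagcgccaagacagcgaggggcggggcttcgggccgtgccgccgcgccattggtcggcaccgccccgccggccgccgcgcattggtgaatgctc
Rbl1 (chr2:157204535-157204784, - strand, match beginning 18 bases before the start): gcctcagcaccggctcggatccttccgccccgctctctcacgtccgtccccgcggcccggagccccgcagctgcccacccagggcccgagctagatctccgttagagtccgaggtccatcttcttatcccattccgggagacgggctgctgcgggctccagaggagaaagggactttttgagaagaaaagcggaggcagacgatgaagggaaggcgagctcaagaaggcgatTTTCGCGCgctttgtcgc
A match is a run of letters, and binding was not measured.

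The arrays were checked before the members were compared. In log2 units of normalised intensity, Parp2 itself read 7.11 and 6.70 on the knockout arrays, below the 8.24 and 7.65 of the wild type. The difference was -1.04 ± 0.40 (SE; limma unadjusted p = 0.0368, adjusted p = 0.9999). Since 9.62% of all genes were apart in this direction, these values alone do not establish the knockout. Of the 12 erythroid markers listed, 9 had a probe set of their own, among them Tfrc, which encodes CD71, and all 9 lay above the 75th percentile of every array. The adult globin genes Hbb-b1 and Hba-a1 were among those with none and were not read. Array medians lay between 5.23 and 5.49. Knockout replicate 2 stood apart by its spread, with an interquartile range of 1.98 against 2.62 to 2.94 on the other arrays, so that bright probe sets tend to read lower there. The main fit used the deposited values with these unequal spreads. Quantile normalisation applied here to the annotated probe sets is called repeated below. That name does not mean that the deposited values shared the same distribution. In bulk samples a change in the number of cells of a type and a change in RNA per cell cannot be told apart.

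None of the 10 members differed between the genotypes beyond the spread of the arrays. In the limma fit over 23410 annotated probe sets, 0 of the 10 passed an adjusted p under 0.05, where 0 probe sets did (0.0%), and 0 of the 10 had an unadjusted p under 0.05, against 2.08% of all probe sets. In all 10 the values of the genotypes overlapped, while the groups were apart in either direction for 26.0% of genes and 22.4% of the brighter genes among them (those with a mean above the median of all probe sets). Differences (knockout minus wild type, log2) ran from -0.45 for Rbl1 to 0.33 for Rb1. Their median was 0.00, beside 0.08 over all genes and -0.09 over the brighter genes, to which all 10 belong. Of the members 6 were higher and 4 lower by the mean, where 41.5% of all genes and 58.5% of the brighter genes were lower. After repeated quantile normalisation 3 members were lower, beside 43.5% of all genes and 47.5% of the brighter genes. After each array was centred on its median 7 were lower, beside 49.7% and 65.5%. The split thus has no settled direction, and the shares over the genes also moved with the scaling. The limma 95% intervals of all 10 included 0, and they were wide. With 2 residual and 4.77 prior degrees of freedom an interval spans 2.38 standard errors on either side.

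**Figure D1:**
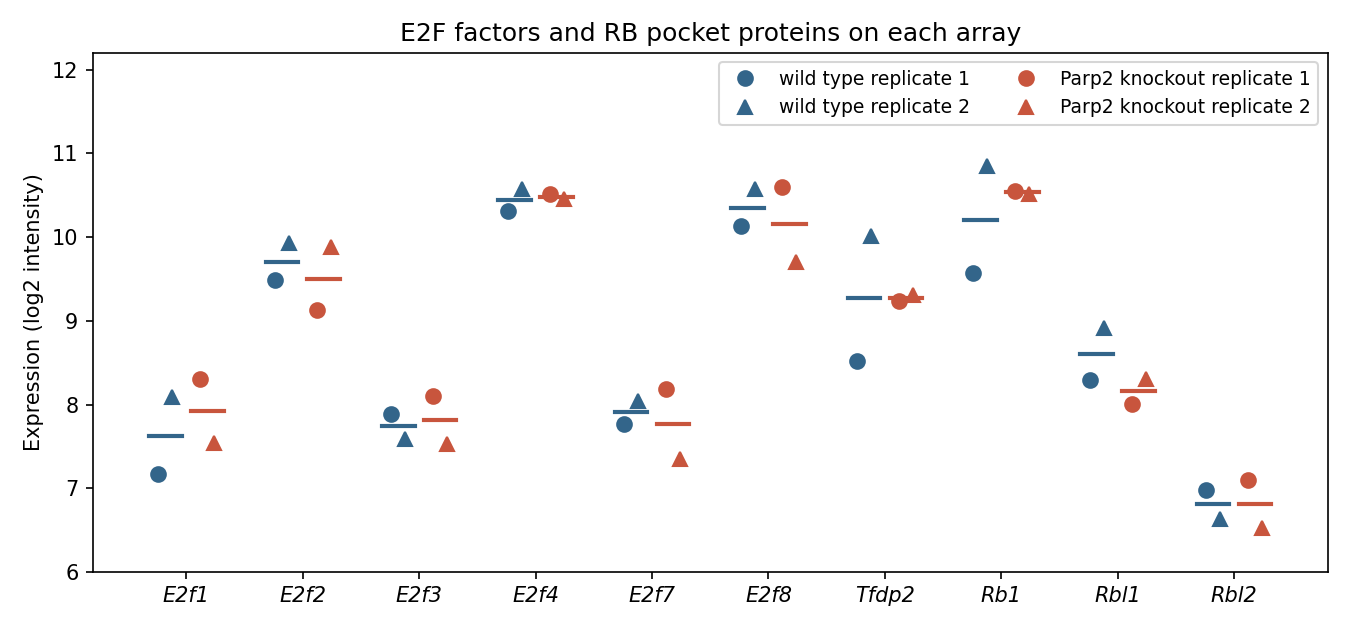
Expression of the 10 members on each array. The vertical axis is normalised log2 intensity, each point is 1 array, circles are replicate 1 and triangles replicate 2, and horizontal bars are means of the 2 arrays of a genotype; levels of different genes are not comparable. In each gene the blue (wild type) and red (knockout) points overlap, and the wild type arrays lie far apart for Tfdp2 and Rb1.

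The activator E2Fs, which drive entry into S phase, were read first. E2f1, which also can trigger apoptosis, read 7.17 and 8.09 in the wild type (replicate 1, then replicate 2, as in all pairs of values that follow) and 8.31 and 7.53 in the knockout. Its highest and lowest arrays were thus of opposite genotype, with the other 2 between them. The difference was 0.29 ± 0.48 (SE, n = 2 per group), with a 95% interval from -0.85 to 1.43, which spans 0.556-fold to 2.70-fold (limma, adjusted p = 0.9999).

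E2f2, the E2F whose loss in mice disturbs late erythroblast maturation, read 9.49 and 9.92 in the wild type and 9.13 and 9.88 in the knockout. Replicate 2 was the higher array in both genotypes, and only knockout replicate 1 lay below the wild type range. The difference was -0.20 ± 0.42 (interval -1.21 to 0.80; limma adjusted p = 0.9999).

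E2f3, an activator that overlaps with E2f1 and E2f2 in function, was read by 2 probe sets. The brighter gave 7.89 and 7.59 in the wild type and 8.11 and 7.53 in the knockout, a difference of 0.08 ± 0.39 (interval -0.85 to 1.01). The dimmer, probe set 10408475, gave 7.15 and 6.19 in the wild type and 5.74 and 6.07 in the knockout. Here the knockout arrays were both the lower ones, with a difference of -0.76 ± 0.44 and an unadjusted limma p of 0.131. The probe sets disagreed in direction, and with their mean E2f3 stood at -0.34. It was the only member with more than 1 probe set of its own.

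Among the repressive E2Fs, E2f4 is the main partner of p107 and p130 in resting cells, and mice without it are anaemic. It was the steadiest member, at 10.31 and 10.58 in the wild type and 10.51 and 10.46 in the knockout. The knockout values lay inside the wild type range. The difference was 0.04 ± 0.36, with an interval from -0.81 to 0.89, or 0.571-fold to 1.85-fold.

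The atypical repressors E2f7 and E2f8 bind DNA without a DP partner and damp E2F target genes late in S phase, and E2F7 is a p53 target in human cells. E2f7 read 7.77 and 8.04 in the wild type and 8.18 and 7.35 in the knockout. E2f8 read 10.13 and 10.57 in the wild type and 10.60 and 9.70 in the knockout. In both genes knockout replicate 1 was the highest array and knockout replicate 2 the lowest, so the knockout arrays enclosed the wild type arrays. The differences were -0.14 ± 0.42 (interval -1.15 to 0.87) for E2f7 and -0.20 ± 0.44 (interval -1.25 to 0.86) for E2f8. The spread between the knockout arrays (SD 0.593 for E2f7 and 0.638 for E2f8) exceeded either difference, which follows from that enclosure. After repeated quantile normalisation E2f7 stood at 0.07, with its sign turned.

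Tfdp2 encodes a DP partner, the subunit that gives typical E2Fs firm DNA binding. It read 8.53 and 10.01 in the wild type and 9.23 and 9.31 in the knockout. The wild type arrays were 1.48 apart, the widest gap within a genotype among the members, and the knockout arrays lay between them. The difference of 0.00 ± 0.53 had an interval from -1.27 to 1.27, which leaves room for 0.415-fold to 2.42-fold.

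Of the pocket proteins, Rb1 encodes RB, which restrains activator E2Fs and is needed for the cell cycle exit of maturing erythroblasts. It read 9.57 and 10.85 in the wild type and 10.55 and 10.52 in the knockout. The knockout arrays were nearly equal (SD 0.0212) and lay inside the wild type range (SD 0.907). The difference was 0.33 ± 0.49, with an interval from -0.85 to 1.50 (limma adjusted p = 0.9999).

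Rbl1 encodes p107, a pocket protein of cycling cells that is itself an E2F target. It read 8.30 and 8.92 in the wild type and 8.004 and 8.31 in the knockout. The groups met at the narrowest margin of the set, wild type replicate 1 at 8.30 just under knockout replicate 2 at 8.31. The difference was -0.45 ± 0.40, with an interval from -1.39 to 0.49 and an unadjusted limma p of 0.293, the lowest among the members. It kept its sign with any 1 array left out, with centring and with repeated quantile normalisation, from -0.76 to -0.14. The remaining alternative settings left its estimate at -0.45, so its sign could not turn there. It passed the test in 0 of the 12 settings.

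Rbl2 encodes p130, the pocket protein of resting cells. It read 6.98 and 6.64 in the wild type and 7.09 and 6.53 in the knockout, with the knockout arrays on either side of the wild type arrays. The difference was 0.00 ± 0.39 (interval -0.93 to 0.94).

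**Figure D2:**
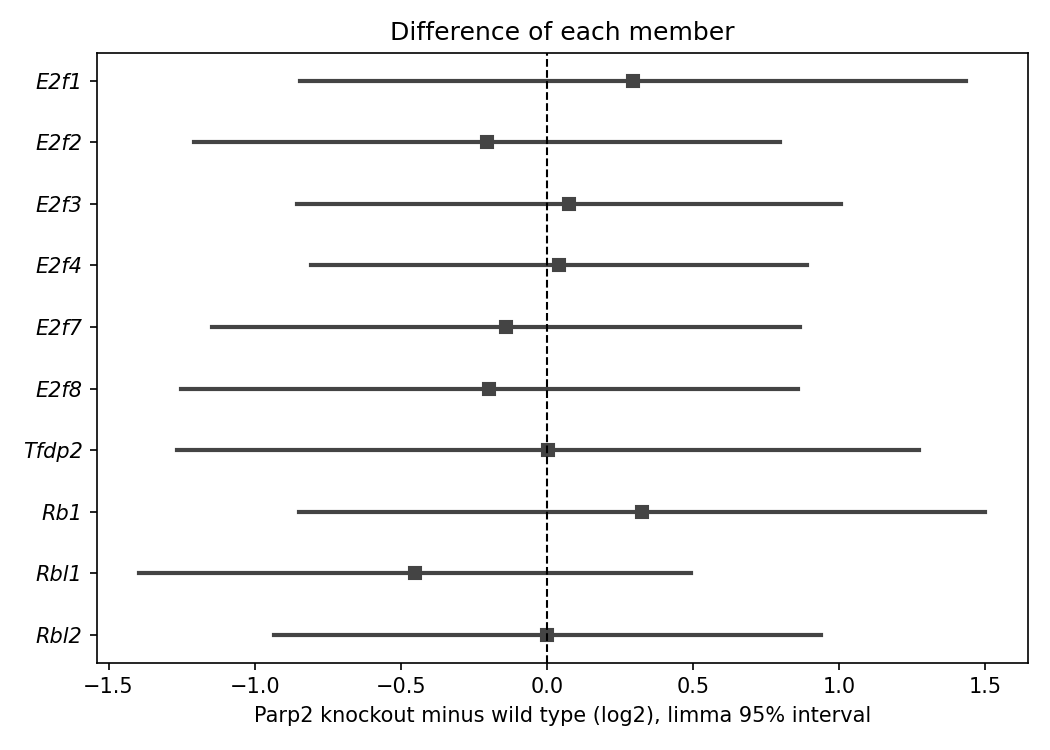
Difference of each member between Parp2 knockout and wild type. The horizontal axis is knockout minus wild type on the log2 scale, squares are estimates from 2 arrays per genotype, and lines are limma 95% intervals. All 10 lines cross 0, and Rbl1, at -0.45, lies farthest from it.

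For all 10 members the wider of the gaps between arrays of 1 genotype exceeded the difference between the genotype means. With 2 arrays per genotype this follows from the overlap of the genotypes and adds nothing to it. Wild type replicate 2 was above wild type replicate 1 for 8 members, E2f3 and Rbl2 being the exceptions. Knockout replicate 2 was below knockout replicate 1 for 7 members, the exceptions being E2f2, Tfdp2 and Rbl1. The 5 members that did both were E2f1, E2f4, E2f7, E2f8 and Rb1, an order of arrays shown by 12.4% of all genes. It was also shown by 10 of the 29 G1/S E2F targets and 4 of the 19 G2/M targets described below. All 10 members are brighter genes, and bright probe sets tend to read lower on knockout replicate 2. The share among the brighter genes was not counted, so this order is not read as particular to the members.

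The outcome of a comparison of single arrays thus depended on which arrays were taken. Knockout replicate 1 was above wild type replicate 1 for 8 of 10 members and above wild type replicate 2 for 5. Knockout replicate 2 was above wild type replicate 1 for 6 and above wild type replicate 2 for 0. All 10 members were lower on knockout replicate 2 than on wild type replicate 2, with a median of -0.44, where 41.7% of all genes were. All 10 belong to the 9878 brighter genes, and of those 66.4% were lower in that pair of arrays. After repeated quantile normalisation, which gives the arrays the same spread, 6 of the 10 were lower in that pair and 50.4% of the brighter genes were. In that scaling all 10 were instead higher on knockout replicate 2 than on wild type replicate 1 (median 0.59), where 49.6% of the brighter genes were lower. Knockout replicate 1 was then below wild type replicate 2 for 8 members and above wild type replicate 1 for 8. The scaling thus moved the one-sided result to another pair. These single-array comparisons have no replicate check.

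**Figure D3:**
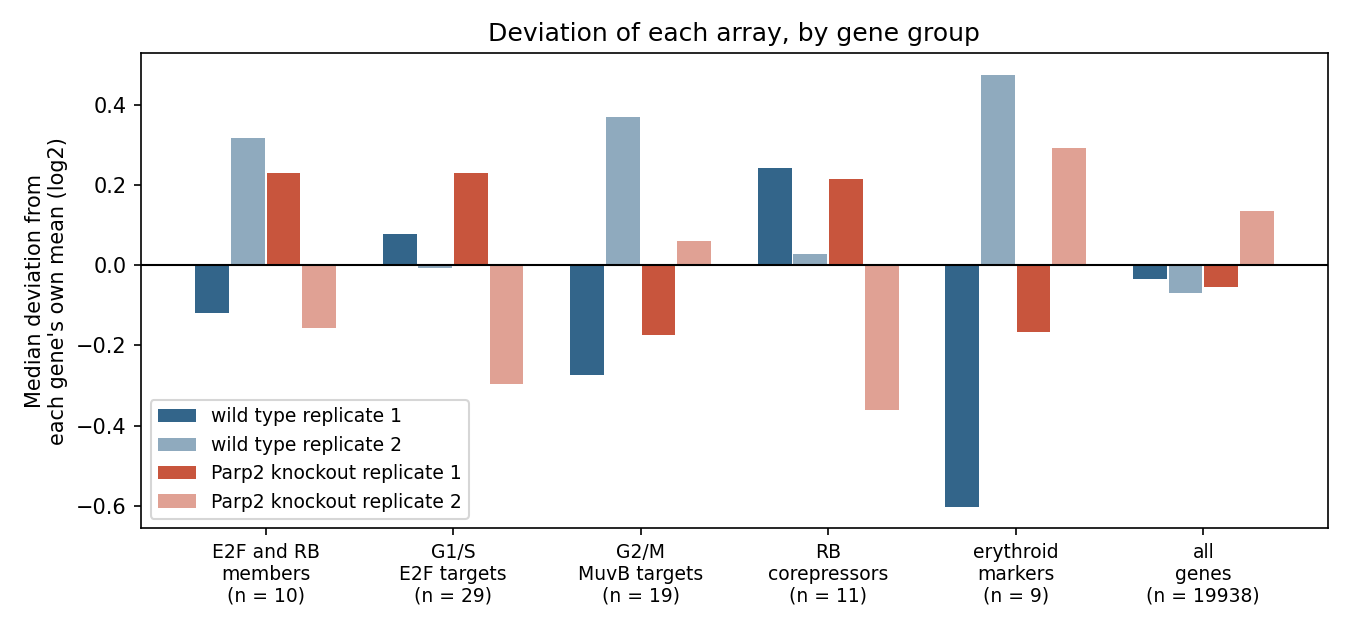
Deviation of each array from the mean of the 4 arrays, by gene group. Bars are the median over the genes of a group of log2 value minus the gene's own mean, with n the genes measured, blue for wild type and red for knockout, and the paler shade for replicate 2. For the members wild type replicate 2 (0.32) and knockout replicate 1 (0.23) are high, and wild type replicate 1 (-0.12) and knockout replicate 2 (-0.16) are low, while the G1/S targets are high on knockout replicate 1 (0.23) and low on knockout replicate 2 (-0.30).

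Genes that share the pattern of a member over the 4 arrays were sought by the distance between values centred on each gene's mean. Nearest to E2f2 were Dennd2d (distance 0.0404) and Tnf (0.0565). Nearest to E2f4 were Pdlim4 (0.0176) and Slc18b1 (0.0283), and nearest to Rb1 were Abcb6 (0.0826) and Nanp (0.105). With 4 arrays such matches are common, since 427 genes lay within 0.2 of E2f4, 115 of E2f2 and 30 of Rb1.

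The remaining family members did not pass the test either. E2f6, a repressor that works without pocket proteins, differed by -0.31 ± 0.51, and E2f5, a partner of p130, by 0.15 ± 0.36 at a dim level between 3.91 and 4.30. Tfdp1, the other main DP partner, read 10.29 and 10.24 in the wild type and 10.50 and 9.99 in the knockout, a difference of -0.01 ± 0.38. In all 3 the genotypes overlapped on these probe sets. The second probe set of Tfdp1, 10582981, read 9.54 and 9.46 in the wild type and 9.43 and 9.36 in the knockout, apart but by only -0.10 ± 0.35.

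The MuvB core joins p107 or p130 and E2F4 in the DREAM repressor of resting cells, and B-Myb in cycling cells. Of 7 listed genes, 5 of the core and the B-Myb genes Mybl2 and Mybl1, 0 passed the test in either direction. Lin52, the subunit that governs whether DREAM assembles, read 5.79 and 6.19 in the wild type and 7.21 and 7.20 in the knockout. The knockout arrays were the 2 highest, at 1.21 ± 0.36 or 2.32-fold, with an unadjusted limma p of 0.0134 and an adjusted p of 0.9999. Its second probe set, 10397249, was also higher on both knockout arrays (6.97 and 6.62 against 5.90 and 6.18), with a difference of 0.75 ± 0.37. Such separation upward was found for 16.4% of all genes, and an unadjusted p under 0.05 for 2.11%.

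The other genes of this list differed less. Lin54, the DNA-binding subunit, stood at -0.48 ± 0.40, with 7.70 and 8.42 in the wild type and 7.64 and 7.52 in the knockout. Mybl2, which encodes B-Myb, stood at -0.52 ± 0.41, with 9.14 and 9.17 against 9.04 and 8.23. Both had knockout arrays below the wild type arrays, as did Rbbp4 (-0.27), and 9.62% of all genes were apart in this direction. Lin37 (-0.15), Lin9 (-0.06) and the B-Myb relative Mybl1 (0.17) overlapped.

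The cyclins and kinases that phosphorylate the pocket proteins were compared next. Of 8 genes 0 passed the test, 7 were lower by the mean, against 41.5% of all genes and 58.5% of the brighter genes, and the median was -0.29. After repeated quantile normalisation 5 of 8 were lower, with a median of -0.12. Ccnd2, a D-type cyclin gene, read 7.69 and 7.08 in the wild type and 6.46 and 6.18 in the knockout. The knockout arrays were the 2 lowest, with a difference of -1.07 ± 0.39, an unadjusted limma p of 0.0307 and an adjusted p of 0.9999. Of all genes 9.62% were apart in this direction and 16.4% in the other, and 2.11% had an unadjusted p under 0.05. Cdk6, the gene of a D-cyclin kinase, read 8.39 and 7.85 in the wild type and 8.04 and 5.30 in the knockout. Knockout replicate 1 lay inside the wild type range and replicate 2 far below it, which gave a difference of -1.45 ± 0.84. Cdk4 (-0.04), Cdk2 (-0.13), Ccnd3 (-0.34) and Ccne2 (-0.23) overlapped, Ccnd1 (-0.48) was lower without overlap, and Ccne1, a cyclin E gene and E2F target, was the higher one at 0.39 ± 0.39, from 9.69 and 9.78 to 10.43 and 9.82. Without knockout replicate 2 the list's median was -0.02, with 4 of 8 lower.

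The CDK inhibitors that keep the pocket proteins active had 6 measured genes, Cdkn1a having no probe set of its own. Of these 0 passed, 3 were higher and 3 lower. Cdkn1b, which encodes p27 and rises as erythroblasts mature, read 8.09 and 10.72 in the wild type and 8.99 and 10.05 in the knockout. Like Rb1 and Tfdp2 it had a wide wild type gap with the knockout arrays inside it, at a difference of 0.12 ± 0.85. Cdkn2d (-0.30), Cdkn2c (-0.22) and Cdkn2b (-0.21) had lower means, and Cdkn2a (0.30) and Cdkn1c (0.22) higher ones.

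Corepressors that pocket proteins recruit to E2F sites were lower by the mean for all 11 measured genes, each on its probe set of highest mean. Of all genes 41.5% were lower, and of the brighter genes 58.5%. A second probe set of Rbbp7, 10602164, went the other way at 0.11 ± 0.37, with 8.53 and 8.48 against 8.84 and 8.38. That of Hdac1, 10447004, was also lower (-0.26). Of the 11, 0 passed the test, and for 2 the genotypes did not overlap, beside 9.62% of genes apart in this direction. The median was -0.21. The histone deacetylase gene Hdac2 stood at -0.82 ± 0.65 (9.56 and 8.74 against 9.26 and 7.40), the demethylase gene Kdm5a at -0.38 ± 0.36, and the scaffold gene Sin3b at -0.42 ± 0.42. After repeated quantile normalisation 9 of 11 were lower, with a median of -0.049. Without knockout replicate 2 the count was 5 of 11 and the median 0.11, so the common direction rested on that array.

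E2F target genes of the G1/S transition had no settled direction either. Of 29 measured, 0 passed, and 22 were lower, against 41.5% of all genes and 58.5% of the brighter genes. The groups were apart for 2, where they were for 26.0% of all genes. The median was -0.08. Mybl2 (-0.52), the chromatin assembly gene Chaf1b (-0.38) and the replicative helicase gene Mcm3 (-0.34) had the lowest p among the lower ones. Ccne1 (0.39), the thymidine kinase gene Tk1 (0.17) and the ribonucleotide reductase gene Rrm2 (0.12) did among the higher ones. The count of lower genes was 9 after repeated quantile normalisation (median 0.10) and 6 without knockout replicate 2 (median 0.19). The E2F letters stood in a promoter window of 10 of the 24 targets with one (41.7%). Of those 10, 8 were lower, with differences from -0.34 to 0.04 and a median of -0.10. Of the other 14, 10 were lower, with differences from -0.52 to 0.39 and a median of -0.06.

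Late cell cycle genes bound by MuvB complexes were compared last. Of 19 measured, 0 passed, and 12 were lower (63.2%), against 41.5% of all genes and 58.5% of the brighter genes. The median was -0.13. After repeated quantile normalisation 7 of 19 were lower and the median was 0.025. The checkpoint kinase gene Bub1 (-0.53), Aurkb (-0.43) and Aurka (-0.37), which encode Aurora kinases, were lower on both knockout arrays, as were 9.62% of all genes. The ubiquitin-conjugating enzyme gene Ube2c (0.24), the kinesin gene Kif20a (0.23) and Cdc20 (0.17), an activator of the anaphase-promoting complex, had the lowest p among those with higher means. This list was highest on wild type replicate 2 (0.37) and lowest on wild type replicate 1 (-0.27), the order also seen for erythroid markers (0.48 and -0.60). Without wild type replicate 2 its median turned to 0.26, with 5 of 19 lower. The E2F letters stood in a window of 1 of 17 of these genes (5.88%), Cdk1.

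**Figure D4:**
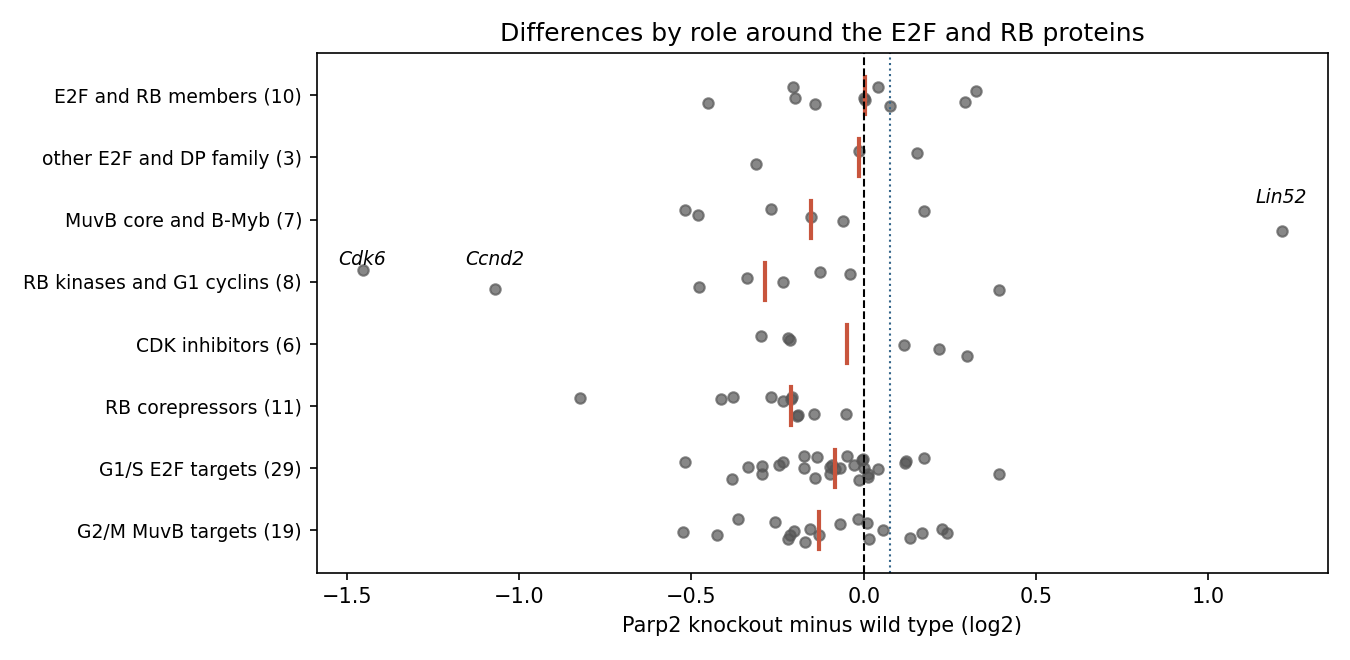
Differences of genes around the E2F and RB proteins, by role. The horizontal axis is knockout minus wild type (log2), each point is 1 gene, the number measured is in brackets, red bars are medians, the dashed line is 0 and the dotted line is the median of all genes (0.08). Lin52 (1.21), Ccnd2 (-1.07) and Cdk6 (-1.45) lie past 1 on the log2 scale, and the other genes lie between -0.82 and 0.39.

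Most markers of other blood cells read lower in the knockout, where 41.5% of all genes and 58.5% of the brighter genes did. All 12 neutrophil markers were lower in the knockout, with summed intensities of 33805 to 38139 in the wild type and 18881 to 23163 in the knockout, Chil3 (-1.96) and Ltf (-1.35) having the lowest p. Of the B cell markers 7 of 8 were lower (1136 to 1628 against 518 to 654), led by Ms4a1 (-2.00) and Vpreb1 (-2.90). Of the mast cell, basophil and eosinophil markers 6 of 7 were lower (619 to 1166 against 311 to 326), led by Mcpt8 (-2.24) and Alox5 (-1.58). Of the monocyte and macrophage markers 6 of 8 were lower (4691 to 5421 against 2657 to 2937), with Adgre1 (-1.12) and Lyz2 (-0.97). Of the T and NK cell markers 7 of 8 were lower (577 to 1013 against 339 to 426), with Nkg7 (-1.63) and Cd3g (-0.92). Nkg7 was the brightest of them on every array, at 9.55 and 8.01 in the wild type, so it weighs most in these sums. Cd3g was dim, between 3.58 and 4.84. The megakaryocyte and platelet markers had overlapping sums (375 to 503 against 283 to 541), with Pf4 at 1.14 and Gp9 at -0.62. The erythroid markers also overlapped (9585 to 23253 against 14141 to 21546), with 7 of 9 higher, among them Alas2 at 0.55 and Tal1 at 0.27, and with Epor (-0.23) and Gata1 (-0.13) lower. Array intensities have no true zero, so a marker that is absent cannot be read from them. The part of these cells in the values of the E2F, RB, Ccnd2, Cdk6 and corepressor genes was not tested.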

How the data were processed

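The deposited values, made by the authors, are log2 intensities of 35511 probe sets on 4 Affymetrix whole-transcript arrays, with total RNA labelled as sense target per the labels' protocols. The tools named are RMA, limma and R 3.0.2, per the submitters' processing notes; their roles are not given in the sources used here. Columns carry sample names. Symbols came from the platform annotation (21789 probe sets with 1 symbol, 1621 with several, 12101 rows with none); gene IDs of all 10 members matched RefSeq. Coordinates of genes are not used here, apart from the RefSeq promoter windows.

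The genotypes entered a limma fit (version 3.58.1, under R 4.3.3; lmFit, eBayes, no further term, 2 residual and 4.77 prior degrees of freedom) over 23410 probe sets, with Benjamini-Hochberg adjustment. The fit was tested on simulated data. An exact two-sided permutation test of 2 against 2 cannot give a p under 0.333 and was not used. Lists have no test and are described by counts and medians. The members and lists were chosen with earlier results of these data known. Named are Parp2, the members, every measured gene of the lists for other E2F and DP genes, MuvB, RB kinases and CDK inhibitors, the 3 of lowest p per direction in the corepressor and target lists, the 2 of lowest p per marker list, and the 2 genes nearest in pattern to E2f2, E2f4 and Rb1. Each title also begins with a number, 1 or 2 in the wild type and 3 or 4 in the knockout, and if this was a processing order it cannot be told apart from genotype. The number of arrays limits the precision.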

Additional observations from a re-analysis of the deposited data

How the results depend on the processing

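None of the 10 members passed the test under any alternative run (a replicate block, leaving out each array, centring, repeated quantile normalisation, all rows, array weights, removal of dim probe sets, a trended robust moderation, and averaging of each gene's probe sets), nor at an unadjusted p under 0.05. With the number in the titles as a replicate block 274 probe sets passed, with 1 residual degree of freedom, and no label says what that number marks. The count over all probe sets was 0 to 62 with 1 array left out (5 if wild type replicate 1 was dropped and 62 if wild type replicate 2 was), 8 with the trended robust moderation, and 486 at the unadjusted threshold. The members' median ranged from -0.29 to 0.27 with 1 array left out.

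Signs turned when arrays were centred for E2f4 (-0.032), Tfdp2 (-0.070) and Rbl2 (-0.071), after repeated quantile normalisation for E2f7 (0.069), and with the mean over probe sets for E2f3 (-0.34). With 1 array left out the ranges were -0.17 to 0.75 for E2f1, -0.58 to 0.17 for E2f2, -0.21 to 0.36 for E2f3, -0.093 to 0.17 for E2f4, -0.56 to 0.28 for E2f7, -0.65 to 0.25 for E2f8, -0.74 to 0.75 for Tfdp2, -0.32 to 0.97 for Rb1, -0.76 to -0.14 for Rbl1 and -0.28 to 0.29 for Rbl2; the cause was not tested.

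Some alternatives were chosen after seeing the data. The 10 members lower on knockout replicate 2 than on wild type replicate 2 became 6 after repeated quantile normalisation. The 6 members higher on knockout replicate 2 than on wild type replicate 1 became 10 after repeated quantile normalisation. The 22 lower G1/S targets became 9 there, and 6 to 25 with 1 array left out. The 11 lower corepressors became 9 there, and 5 to 10 with 1 array left out.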
